A study of Mus musculus with 16 samples.

Results

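Fatty acid oxidation was followed through 34 genes, chosen by name for their place in the pathway, of the 19449 genes in the deposited table. All 34 were found in the table by their Ensembl identifiers, and all 34 had enough counts to be tested. The libraries came from total RNA of the hippocampus of 3-month-old mice, 4 libraries in each of 4 groups. The groups were mice labelled TSPOKO (KO) injected with lipopolysaccharide (LPS), KO mice injected with phosphate-buffered saline (PBS), wild-type (WT) mice injected with LPS, and WT mice injected with PBS. Tspo encodes the translocator protein of the outer mitochondrial membrane, LPS is a bacterial cell wall component that triggers inflammation, and PBS is its vehicle. The labels give no dose, route or time after injection, no detail of the knockout allele, and no statement that the replicates are separate animals, so each p-value below measures the spread between libraries.

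A fatty acid is first joined to coenzyme A by an acyl-CoA synthetase. Long chains then enter mitochondria through the carnitine shuttle, whose entry enzyme, carnitine palmitoyltransferase 1, is blocked by malonyl-CoA. Inside, each turn of beta-oxidation runs through a dehydrogenase, a hydratase, a second dehydrogenase and a thiolase, and electrons from the first step pass to the respiratory chain through the electron transfer flavoprotein. Peroxisomes run a parallel path for very long and branched chains. In brain the pathway is mostly a matter of astrocytes and other glia, since neurons burn little fatty acid.

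The checks of the libraries bear on what follows. Total counts ran from 30198619 to 50009041 per library. Tspo stood at 0.486, 0.366, 0.274 and 0.209 CPM (counts scaled to library size) in KO LPS replicates 1 to 4 and at 2.33, 0.152, 0.28 and 0.47 CPM in the libraries labelled KO PBS, against 2.63, 11.9, 9.4 and 10.1 CPM in WT LPS and 2.52, 2.59, 2.06 and 5.17 CPM in WT PBS. The library labelled KO PBS replicate 1 therefore had a WT-like level of Tspo that went against its label. Lcn2, an acute-phase gene, stood at 0.641, 238, 209 and 237 CPM in WT LPS replicates 1 to 4, and at most at 0.302 CPM in every other library, KO LPS included. WT LPS replicate 1 and all 4 KO LPS libraries thus lacked this response. Choroid plexus markers summed to 15.8 CPM in WT LPS replicate 1 and 14.5 CPM in WT PBS replicate 1, against 583 CPM or more in the other 14 libraries. Y-linked transcripts were present in KO LPS replicates 3 and 4, the libraries labelled KO PBS replicates 2 and 3, WT LPS replicate 1 and WT PBS replicate 4, so sex was mixed within groups. The titles also carry codes of unstated meaning. WT LPS replicates 2, 3 and 4 share a code that no WT PBS or KO LPS library has, so code and group cannot be told apart in those comparisons. The library labelled KO PBS replicate 4 carries that code as well. WT LPS replicate 1 and WT PBS replicate 4 share another, too few for a test. All 10 hippocampal neuron markers were detected.

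Levels of the genes were compared per kilobase of merged exons, since CPM grows with transcript length. Merged exons pool all annotated transcripts of a gene and can be longer than the transcript expressed. They came to 1164 bases for Etfb, 8286 for Echs1 and 11521 for Acox3, so the order of genes depends in part on the annotation. In WT PBS hippocampus the synthetases Acsl3 and Acsl6 led, at 42.5 ± 5.82 and 25.6 ± 2.41 CPM per kb (mean ± SD, n = 4). They were followed by Etfb, a subunit of the electron transfer flavoprotein, at 20.7 ± 2.92, Cpt1c, the brain form of the carnitine palmitoyltransferase, at 19.8 ± 1.96, and Acsl4, which prefers arachidonate, at 17.4 ± 1.46 CPM per kb. Levels of Etfb, Cpt1c and Acsl4 overlapped within their SD. Cpt1a, the form that carries long chains into mitochondria, stood at 4.07 ± 0.543 CPM per kb, below Cpt1c by far more than the spread of either. The lowest members were the peroxisomal enzyme Ehhadh at 0.976 ± 0.286 and Acacb, which makes malonyl-CoA at the mitochondrial surface, at 0.893 ± 0.215 CPM per kb, and these overlapped.

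**Figure D1:**
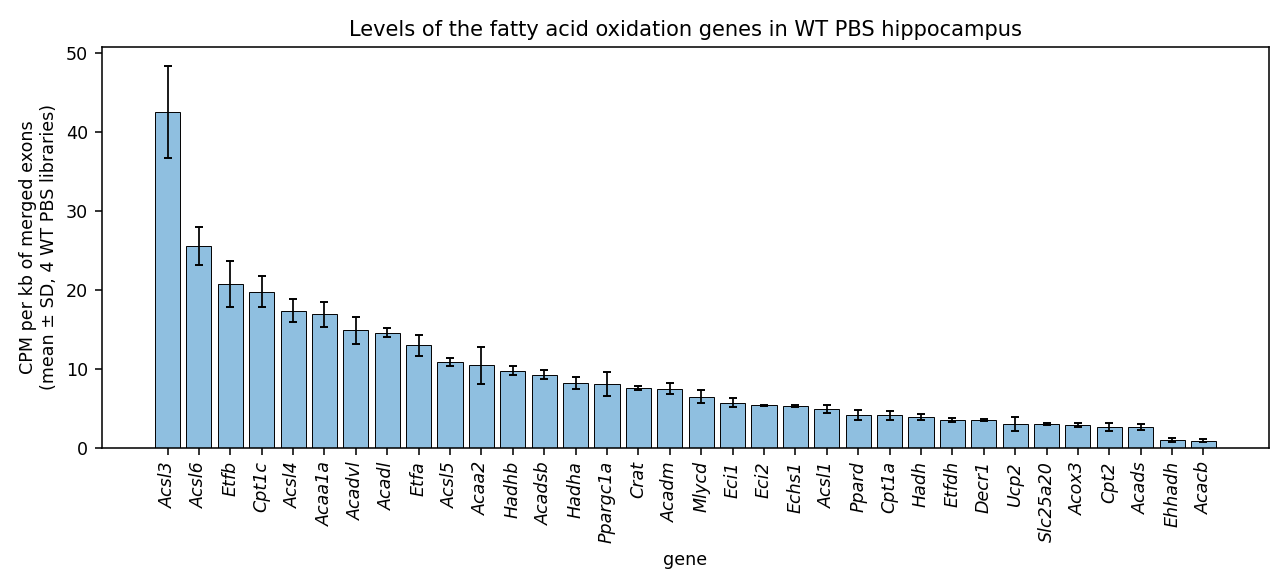
Levels of the 34 genes in WT PBS hippocampus, in CPM per kb of merged exons (vertical axis, linear), ordered from high to low; bars are means and error bars SD over 4 libraries. Acsl3 at 42.5 and Acsl6 at 25.6 lead, and Ehhadh and Acacb end the order below 1 CPM per kb.

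Few members moved, and those that did moved in both directions. Between KO LPS and WT LPS, 6 of 34 members passed at an adjusted p below 0.05 (17.6%; edgeR quasi-likelihood test adjusted over all 16269 genes), against 11.9% of all genes. Hadhb and Acsl6 were higher in KO LPS, where 4.61% of all genes were called higher, and Cpt1c, Eci2, Acox3 and Ucp2 were lower, as were 7.28% of all genes. Between WT LPS and WT PBS, 3 of 34 passed (8.82%), against 8.57% of all genes. Acox3 was higher in WT LPS, as were 4.72% of all genes, and Acsl6 and Hadhb were lower, as were 3.85%. The median log2 fold change of the members was 0.00 between KO LPS and WT LPS and -0.03 between WT LPS and WT PBS, against 0.00 over all genes tested in both. Read against all genes, the share of members called was at the background between WT LPS and WT PBS. Between KO LPS and WT LPS it was above the background with all libraries and below it without WT LPS replicate 2 or 4 (1 of 34 each time, against 6.64% and 5.85% of all genes), so nothing is read from it about the members as a group. These comparisons share the 4 WT LPS libraries, so opposite signs in them are not 2 separate results.

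Within the KO, 0 of 34 members passed between KO LPS and the libraries labelled KO PBS (edgeR), as did 0 of all genes (0%), with 5 members and 1120 genes at an unadjusted p below 0.05. DESeq2 and limma-voom also called 0 members there. Of the 34 members, 26 (76.5%) had a lower estimate in KO LPS, with a median log2 fold change of -0.10, against 53.48% of all genes and a median of -0.01. Some marker lists leaned the same way there without a call: 9 of 10 hippocampal neuron markers, 9 of 9 choroid plexus markers and 7 of 7 ependyma markers had lower estimates in KO LPS, with medians of -0.42, -0.41 and -0.28 (edgeR, 0 passed). Other lists leaned the other way, also without a call. Higher estimates were seen in 7 of 8 general neuron markers (median 0.15) and 5 of 7 markers of neighbouring brain regions (median 0.74). Microglia and astrocyte markers were split, with 5 of 10 lower in each. The part of these lists in the members' estimates was not tested. With 1 surrogate variable as a covariate, 58.82% of members were lower, with a median of -0.01. The largest estimates in each direction were -0.40 ± 0.17 (SE) for Acacb and 0.22 ± 0.12 for Ppargc1a, the coactivator that drives mitochondrial genes. Between the libraries labelled KO PBS and WT PBS, 0 of 34 members passed (edgeR), against 0.0369% of all genes. There, 2 members had an unadjusted p below 0.05, against 841 of 16269 genes. They were Echs1, the short-chain hydratase, at 0.25 ± 0.08, and Ppard, a fatty acid sensing nuclear receptor, at -0.27 ± 0.11. DESeq2 called 0 members in this comparison and limma-voom 1, Echs1, with 0.098% and 1.89% of all genes called. The test of whether the LPS difference itself differed between genotypes (genotype by LPS interaction) called 0 of 34 members (edgeR), against 1.15% of all genes. An unadjusted p below 0.05 was seen in 9 of 34 members, against 3520 of 16269 genes. The smallest adjusted p of a member was 0.0782, for Cpt1c. DESeq2 called 2 members in the interaction, against 7.76% of all genes, and limma-voom 13, against 24.8%.

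**Figure D2:**
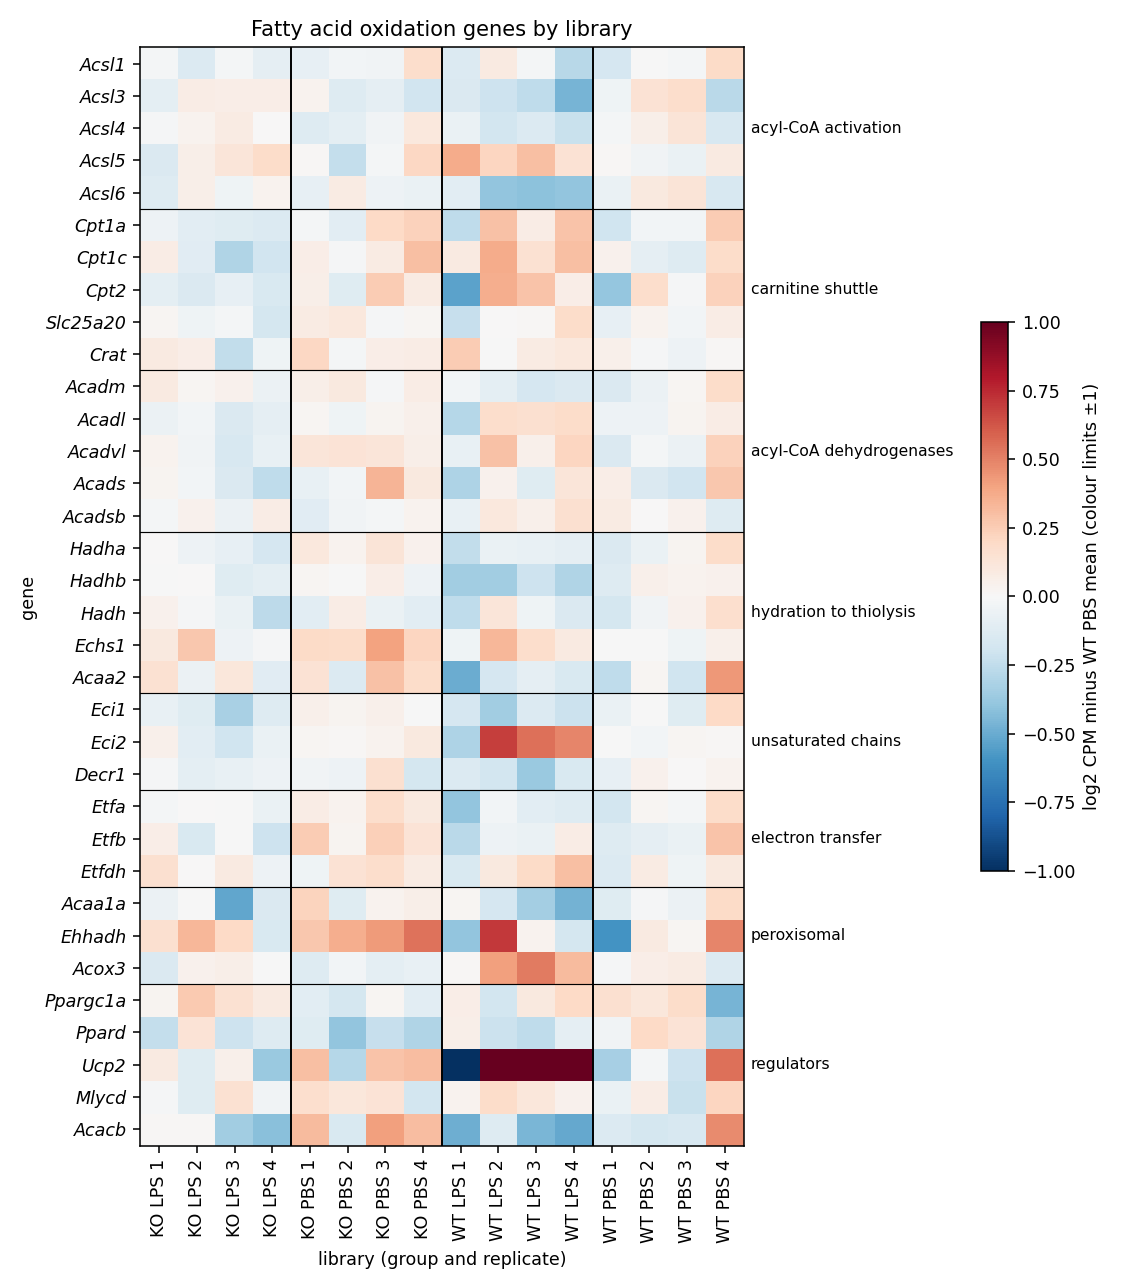
Log2 CPM of each of the 34 genes (rows, grouped by role) in each of the 16 libraries (columns), minus the gene's WT PBS mean; colours stop at 1 log2 unit either way. Ucp2 and Eci2 are high in WT LPS replicates 2, 3 and 4 and below the WT PBS mean in WT LPS replicate 1, while most other rows stay near 0.

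WT LPS replicate 1 decides much of the picture. Without it, 11 of 34 members passed between KO LPS and WT LPS, against 24.3% of all genes, and 7 of 34 between WT LPS and WT PBS, against 20.5% of all genes. The interaction then called 9 of 34, against 16.1% of all genes. Members added between KO LPS and WT LPS were Acsl3 and Acsl4, which were higher in KO LPS, and Cpt1a, Acadl and Acadvl, which were lower. Those added between WT LPS and WT PBS were Eci2, Acadl and Ucp2, which were higher in WT LPS, and Acsl3, which was lower. The interaction was positive for Acsl3 and Acsl6 and negative for Cpt1c, Acadl, Acadvl, Echs1, Eci2, Acox3 and Ucp2. Leaving out WT LPS replicate 2, 3 or 4 left 1, 2 and 1 members called between KO LPS and WT LPS, against 6.64%, 5.23% and 5.85% of all genes. It left 1 each time between WT LPS and WT PBS, against 4.62%, 3.28% and 4.23% of all genes. Leaving out KO LPS replicate 2, 3 or 4 left 2, 2 and 1 in the first comparison (7.72%, 6.28% and 8.02% of all genes), and leaving out WT PBS replicate 2 or 3 left 1 in the second (3.79% and 3.76%). Calls over all genes thus fell with those of the members. The 10 libraries without Y-linked transcripts do not include WT LPS replicate 1. Among them the counts were 6 of 34 between KO LPS and WT LPS (13.6% of all genes) and 13 of 34 between WT LPS and WT PBS (23.1% of all genes).

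**Figure D3:**
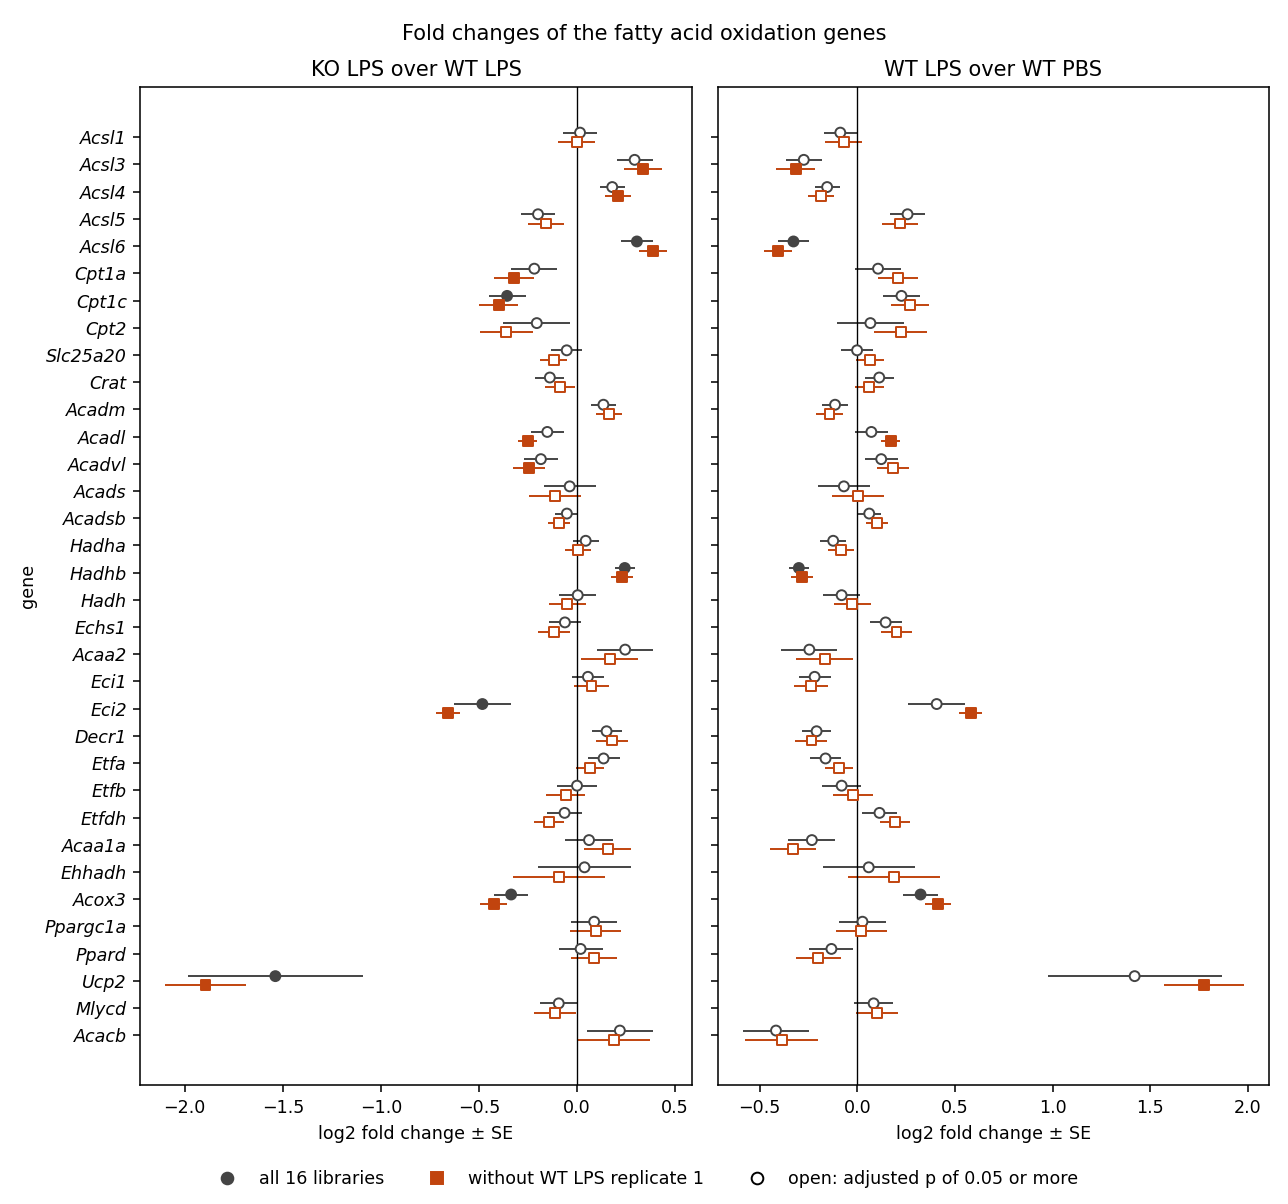
Log2 fold change ± SE (horizontal axis) of each of the 34 genes for KO LPS over WT LPS (left) and WT LPS over WT PBS (right), with all 16 libraries (circles) and without WT LPS replicate 1 (squares); filled symbols have an adjusted p below 0.05. Ucp2 lies farthest from 0 in both panels, at -1.54 and 1.42 with all libraries.

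Markers of several cell types differed in the same comparisons. For the counts of markers here and in the next paragraph, 4.61% of all genes were called higher and 7.28% lower in KO LPS than in WT LPS. In WT LPS against WT PBS the shares were 4.72% and 3.85%. Nothing is read from a list with 1 call. Of 10 microglia markers, 2 were higher and 4 lower in KO LPS than in WT LPS, and their summed level ran from 320 to 387 CPM in KO LPS and from 328 to 362 CPM in the libraries labelled KO PBS, against 303, 585, 496 and 482 CPM in WT LPS replicates 1 to 4 and 297 to 360 CPM in WT PBS. Of 10 interferon-induced genes, all 10 were lower in KO LPS than in WT LPS, with sums of 42.3 to 48.6 CPM in KO LPS against 46.6, 248, 234 and 211 CPM in WT LPS replicates 1 to 4. Of 6 leukocyte markers tested, 3 were lower in KO LPS than in WT LPS and 4 were higher in WT LPS than in WT PBS, with medians of -1.63 and 2.22. The 9 leukocyte markers in the table summed to 5.56 to 7.42 CPM in KO LPS and 5.43 to 6.51 CPM in the libraries labelled KO PBS, against 6.84, 22.2, 16 and 23.7 CPM in WT LPS and 5.25 to 7.11 CPM in WT PBS. These 3 lists were high in WT LPS replicates 2, 3 and 4, and replicate 1 lay near the other groups. Camp, a leukocyte marker, was at 0 in all libraries labelled KO PBS, and no other marker of any list was at 0 throughout a group.

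By summed level, other lists did not divide the WT LPS libraries in that way. Read as mean log2 CPM of a list relative to WT PBS, the astrocyte and general neuron lists did. Astrocyte values were -0.09, 0.21, 0.17 and 0.25 in WT LPS replicates 1 to 4, and at most 0.12 in the other groups. General neuron values were 0.05, -0.24, -0.14 and -0.19, and -0.075 or more in the other groups. Of 10 oligodendrocyte markers, 7 were higher in KO LPS than in WT LPS. Their sums ran from 7073 to 7753 CPM in KO LPS and from 6656 to 8396 CPM in the libraries labelled KO PBS, against 4335, 8173, 4736 and 3430 CPM in WT LPS and 6874 to 9080 CPM in WT PBS, so WT LPS replicate 2 lay within the WT PBS range and replicates 1, 3 and 4 below it. Of 10 astrocyte markers, 2 were higher and 3 lower in KO LPS than in WT LPS, with estimates from -1.74 for Gfap to 0.53 for Slc4a4. Their sums ran from 5559 to 6012 CPM in KO LPS and from 5593 to 5732 CPM in the libraries labelled KO PBS, against 5640.3, 6603, 6058 and 6588 CPM in WT LPS and 5200.2 to 6113 CPM in WT PBS. All 7 markers of neighbouring brain regions had higher estimates in KO LPS than in WT LPS, and 2 passed. Their sums were 275, 496, 293 and 212 CPM in KO LPS and 86.5 to 483 CPM in the libraries labelled KO PBS, against 102, 94.1, 93.9 and 187 CPM in WT LPS and 130 to 743 CPM in WT PBS. Every KO LPS sum lay above every WT LPS sum. Higher in KO LPS than in WT LPS, too, were 2 of 8 general neuron markers, 1 of 5 oligodendrocyte precursor markers and 1 of 6 mural markers, while 1 of 9 endothelial markers was higher and 3 lower. In bulk tissue, fewer cells of a type and less RNA per cell cannot be told apart, and the part of these markers in the results on the members was not tested.

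Activation comes first in the pathway. Acsl6 (ENSMUSG00000020333; chr11:54303798-54364756, plus strand, GENCODE M21 on GRCm38) encodes the acyl-CoA synthetase that brain uses for docosahexaenoate. It was read at 231.3, 263, 245.9 and 259.6 CPM in KO LPS replicates 1 to 4 and at 238, 268, 244 and 242 CPM in the libraries labelled KO PBS, against 235, 193, 190 and 192 CPM in WT LPS and 242, 270, 277 and 226 CPM in WT PBS. WT LPS replicates 2, 3 and 4 were lower than every other library, and WT LPS replicate 1 lay among the rest, so the groups overlapped. Acsl6 was higher in KO LPS than in WT LPS (log2 fold change 0.30 ± 0.08, SE; adjusted p = 0.0245, edgeR) and lower in WT LPS than in WT PBS (-0.33 ± 0.08; adjusted p = 0.0213). The interaction did not pass (0.34 ± 0.11; adjusted p = 0.11). Without WT LPS replicate 1 the fold changes were 0.39 and -0.41, and the interaction passed (0.42; adjusted p = 0.0102). The first call was lost without WT LPS replicate 2, 3 or 4 or KO LPS replicate 2, 3 or 4 (adjusted p up to 0.086), and the second without WT LPS replicate 2, 3 or 4 or WT PBS replicate 2 or 3 (up to 0.087) and with WT PBS replicates 2 and 3 summed (0.0827).

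Of the other synthetases, Acsl3 had the same pattern of estimates without passing: 172, 194, 192 and 193 CPM in KO LPS and 161 to 188 CPM in the libraries labelled KO PBS, against 166, 160, 154 and 133 CPM in WT LPS and 152 to 208 CPM in WT PBS. All 4 KO LPS libraries lay above all 4 WT LPS libraries (0.29 ± 0.09; adjusted p = 0.0507, edgeR), as they did for Acsl4 (0.18 ± 0.06; adjusted p = 0.0795). Acsl5 ran the other way in WT, with 58.5 to 68.2 CPM in WT LPS against 50.4 to 56.3 CPM in WT PBS, groups that did not overlap (0.26 ± 0.09; adjusted p = 0.0832, edgeR). Such separation was seen in 4 of 34 members between WT LPS and WT PBS, against 8.62% of all genes, and in 5 of 34 between KO LPS and WT LPS, against 14.3%. Acsl1, the form best known from liver, heart and fat, stayed between 41.9 and 58.2 CPM in all 16 libraries, and its estimates ran from -0.09 to 0.01 over the 4 comparisons of groups.

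In the carnitine shuttle, Cpt1c (ENSMUSG00000007783; chr7:44959372-44974851, minus strand) was the member that passed. Its product sits in the endoplasmic reticulum of neurons, binds malonyl-CoA and has little transferase activity. It was read at 116, 102, 90 and 96.9 CPM in KO LPS and at 116, 109, 117 and 136 CPM in the libraries labelled KO PBS, against 118, 143, 123 and 136 CPM in WT LPS and 114, 104, 101 and 125 CPM in WT PBS. Every KO LPS library was below every WT LPS library, though KO LPS replicate 1 and WT LPS replicate 1 nearly met. Cpt1c was lower in KO LPS than in WT LPS (-0.36 ± 0.09; adjusted p = 0.0251, edgeR). Neither LPS comparison passed on its own: the estimates were -0.24 ± 0.09 between KO LPS and the libraries labelled KO PBS (adjusted p = 0.703) and 0.23 ± 0.09 between WT LPS and WT PBS (adjusted p = 0.151). The interaction of -0.46 ± 0.13 had the smallest adjusted p of all members, 0.0782, and passed without WT LPS replicate 1 (-0.51; adjusted p = 0.0205) or WT PBS replicate 4. The call between KO LPS and WT LPS was lost without WT LPS replicate 2 or 4 or KO LPS replicate 2, 3 or 4 (adjusted p up to 0.0788) and among the libraries without Y-linked transcripts (0.0813).

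All 5 shuttle genes had lower estimates in KO LPS than in WT LPS, with a median of -0.21, and 4 of the 5 did not pass. Cpt1a was read at 28.1 to 29.9 CPM in KO LPS, against 25.9, 37.8, 32.6 and 37.6 CPM in WT LPS replicates 1 to 4 (-0.22 ± 0.12; adjusted p = 0.24, edgeR). Without WT LPS replicate 1, the lowest of its group, the difference was -0.32 ± 0.10 and passed (adjusted p = 0.0328). Cpt2, the inner membrane transferase, Slc25a20, the carnitine-acylcarnitine carrier, and Crat, the acetyl transferase, had estimates of -0.21, -0.05 and -0.14.

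The 5 acyl-CoA dehydrogenases, which take the first oxidation step for chains of different length, had 0 calls in each of the 5 tests (edgeR). Between KO LPS and WT LPS their estimates ran from -0.18 ± 0.09 for Acadvl, the very long chain enzyme, to 0.13 ± 0.06 for Acadm, the medium chain enzyme. Acadl, the long chain enzyme, was read at 28.1, 28.7, 26.4 and 27.4 CPM in KO LPS, against 23.9, 33, 32.7 and 33.2 CPM in WT LPS. WT LPS replicate 1 fell below all KO LPS libraries and the other WT LPS replicates above them. Without that library Acadl passed in the comparison of KO LPS with WT LPS (-0.25 ± 0.05; adjusted p = 0.00183, edgeR) and of WT LPS with WT PBS (0.17 ± 0.05; adjusted p = 0.0219), and Acadvl in the first (-0.25 ± 0.08; adjusted p = 0.0398).

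The later steps of the spiral for long chains are carried by the mitochondrial trifunctional protein, whose alpha subunit is Hadha and whose beta subunit, the thiolase, is Hadhb. Hadhb (ENSMUSG00000059447; chr5:30155248-30184593, plus strand) was the only member called whose calls held whichever library was left out. It was read at 64.1, 64.4, 59.1 and 60.2 CPM in KO LPS and at 65.1, 64, 67.2 and 62 CPM in the libraries labelled KO PBS, against 50.5, 50.7, 55.8 and 52.3 CPM in WT LPS and 58.9, 66.5, 66 and 66.2 CPM in WT PBS. All 4 WT LPS libraries, replicate 1 included, were below all 12 others. Hadhb was higher in KO LPS than in WT LPS (0.24 ± 0.05; adjusted p = 0.0104, edgeR) and lower in WT LPS than in WT PBS (-0.30 ± 0.05; adjusted p = 0.00455). With each of the 16 libraries left out in turn, the adjusted p reached at most 0.0319 and 0.0226. Both calls were lost when the fit held only the 8 libraries compared (0.0538 and 0.0823). The interaction was 0.24 ± 0.07 and did not pass (adjusted p = 0.0895).

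Hadha passed in no comparison. It was read at 63.3 to 71.1 CPM in KO LPS and 73 to 77.7 CPM in the libraries labelled KO PBS, against 59.9 to 67.8 CPM in WT LPS and 64.5 to 80.6 CPM in WT PBS. The estimates were 0.04 ± 0.07 between KO LPS and WT LPS and -0.12 ± 0.07 between WT LPS and WT PBS, against 0.24 and -0.30 for Hadhb (Hadha adjusted p = 0.706 and 0.266, edgeR). The log2 ratio of Hadhb to Hadha was -0.12 ± 0.05 in KO LPS and -0.22 ± 0.02 in the libraries labelled KO PBS, against -0.32 ± 0.08 in WT LPS and -0.14 ± 0.11 in WT PBS (mean ± SD, n = 4 each). The ratio in every KO LPS library lay above that in every WT LPS library, with a difference in means of 0.20. It also lay above that in every library labelled KO PBS, with a difference of 0.09. The groups overlapped between WT LPS and WT PBS, with a difference of -0.18, and between the libraries labelled KO PBS and WT PBS (-0.07). This pair was picked after its values were seen, so the ratio is given as a description, with no test. The genes are divergent neighbours: their RefSeq starts lie 273 bases apart on chromosome 5, and the 300-base windows used here for promoters share 228 bases. The window of Hadhb is printed, and its first 228 bases are those shared with the window of Hadha. The Sp1 core GGGCGG occurs 4 times in the window of Hadhb and 1 time in that of Hadha. Only the first of the 4 lies wholly in the shared part. Capitals mark the Sp1 core GGGCGG on either strand (5′ to 3′ on the gene's strand; RefSeq, GRCm38.p6, chr5:30155003-30155302, plus strand).
Hadhb: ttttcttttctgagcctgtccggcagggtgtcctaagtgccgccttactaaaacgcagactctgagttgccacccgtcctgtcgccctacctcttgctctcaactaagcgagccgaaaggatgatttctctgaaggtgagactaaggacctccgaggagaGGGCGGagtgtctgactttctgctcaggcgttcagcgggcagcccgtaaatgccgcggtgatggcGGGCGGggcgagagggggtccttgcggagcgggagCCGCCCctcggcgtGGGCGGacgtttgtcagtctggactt

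The other genes of these steps had 0 calls (edgeR). Echs1, Hadh, which oxidises short and medium chain hydroxyacyl-CoA, and Acaa2, the medium chain thiolase, had estimates of -0.06 ± 0.08, 0.00 ± 0.09 and 0.24 ± 0.14 between KO LPS and WT LPS. Echs1 was read at 49.8 to 57.9 CPM in the libraries labelled KO PBS against 42.6 to 45.5 CPM in WT PBS. It was the only member of the 34 whose groups did not overlap in that comparison, against 3.28% of all genes, and did not pass (adjusted p = 0.918, edgeR).

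Double bonds need auxiliary enzymes. Eci2 (ENSMUSG00000021417; chr13:34977748-35027096, minus strand), an enoyl-CoA isomerase found in peroxisomes and mitochondria, was read at 30.8, 27.7, 25.9 and 28.5 CPM in KO LPS and at 30.2, 29.9, 30.4 and 31.8 CPM in the libraries labelled KO PBS, against 24, 48.1, 43.7 and 41.8 CPM in WT LPS and 29.7, 29.3, 30.1 and 30 CPM in WT PBS. WT LPS replicates 2, 3 and 4 stood above every other library, and WT LPS replicate 1 was the lowest of all 16. Eci2 was lower in KO LPS than in WT LPS (-0.48 ± 0.15; adjusted p = 0.0427, edgeR). The estimate between WT LPS and WT PBS was 0.41 ± 0.15 and did not pass (adjusted p = 0.0956). Without WT LPS replicate 1 they were -0.66 ± 0.06 (adjusted p = 2.961e-06) and 0.58 ± 0.06 (adjusted p = 1.109e-05). With that library kept, the first call was lost on leaving out any other single library except WT PBS replicates 1 and 4 and the library labelled KO PBS replicate 2 (adjusted p up to 0.129). It was also lost with sex as a covariate (-0.41, adjusted p = 0.0722), with WT PBS replicates 2 and 3 summed (0.053) and in the 8 libraries compared alone (0.152). The libraries without Y-linked transcripts do not include WT LPS replicate 1, and among them Eci2 passed (-0.60, adjusted p = 0.00111, edgeR).

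Eci1, the mitochondrial isomerase, and Decr1, the dienoyl-CoA reductase, had estimates of the opposite sign. Eci1 was read at 9.5 to 11 CPM in WT LPS against 11.1 to 13.8 CPM in WT PBS (-0.22 ± 0.08; adjusted p = 0.11, edgeR). Decr1 was read at 10.4 to 12.3 CPM in WT LPS against 12.7 to 13.9 CPM in WT PBS (-0.21 ± 0.08; adjusted p = 0.105). In both genes the groups did not overlap, replicate 1 of WT LPS included, and neither passed.

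The electron transfer genes Etfa, Etfb and Etfdh had 0 calls (edgeR), with estimates from -0.06 to 0.13 between KO LPS and WT LPS. Between KO LPS and the libraries labelled KO PBS all 3 were lower by estimate, from -0.24 ± 0.10 for Etfb to -0.04 ± 0.09 for Etfdh, the ubiquinone oxidoreductase.

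**Figure D4:**
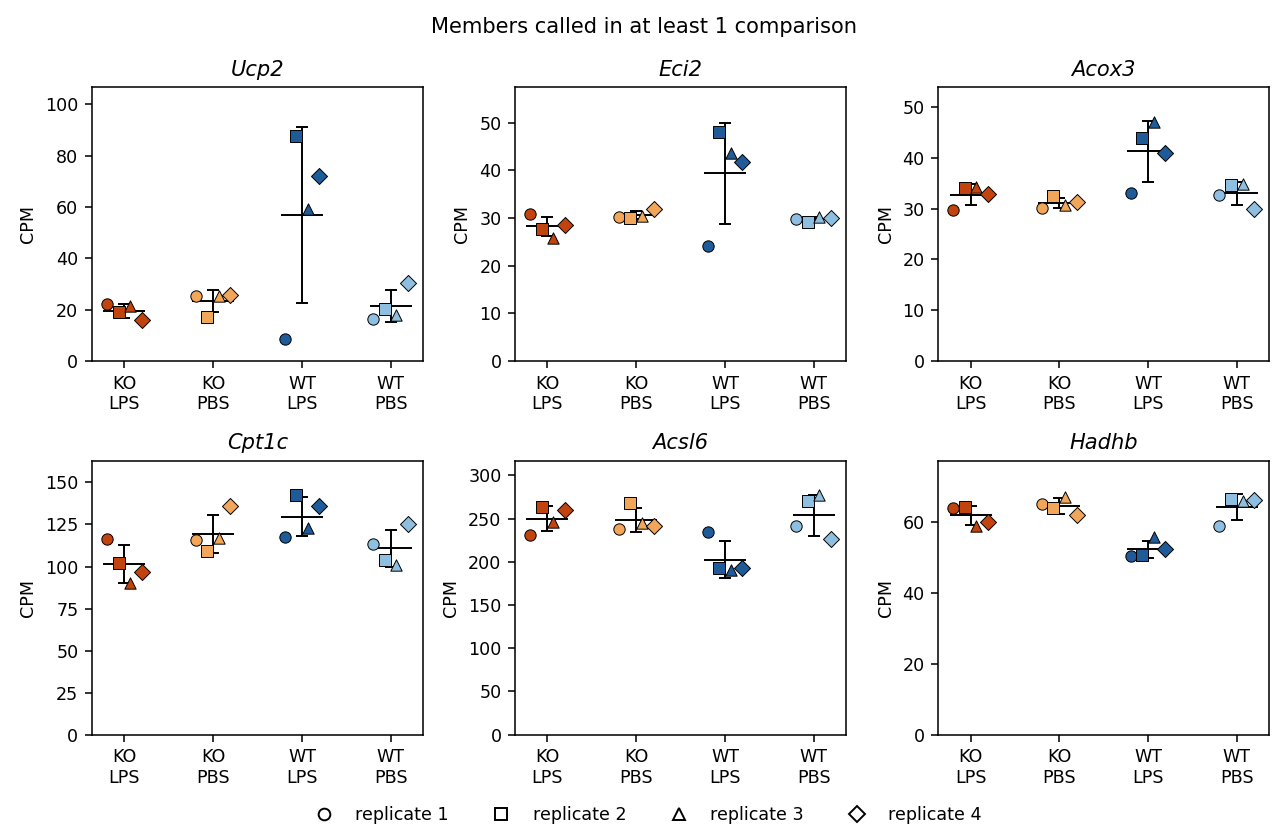
CPM (vertical axes, from 0) of the 6 members called in at least 1 comparison, by group; each point is a library, its shape the replicate number, and bars give mean ± SD over 4 libraries. In Ucp2 and Eci2, WT LPS replicate 1 (circle) lies below the other WT LPS replicates, whereas in Hadhb all 4 WT LPS libraries lie together at 50.5 to 55.8 CPM.

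Of the peroxisomal members, Acox3 (ENSMUSG00000029098; chr5:35583040-35615352, plus strand), an acyl-CoA oxidase known for branched chains, passed. It was read at 29.8, 34, 34.3 and 32.9 CPM in KO LPS and at 30.2, 32.4, 30.8 and 31.4 CPM in the libraries labelled KO PBS, against 33.2, 43.9, 47.2 and 41 CPM in WT LPS and 32.7, 34.6, 34.8 and 30 CPM in WT PBS. WT LPS replicates 2, 3 and 4 were above every other library, and replicate 1 lay within the WT PBS range. Acox3 was lower in KO LPS than in WT LPS (-0.34 ± 0.09; adjusted p = 0.0246, edgeR) and higher in WT LPS than in WT PBS (0.32 ± 0.09; adjusted p = 0.0347). The interaction did not pass (-0.25 ± 0.13; adjusted p = 0.252). Without WT LPS replicate 1 the fold changes were -0.43 and 0.41, and the interaction passed (-0.34; adjusted p = 0.0219). The first call was lost without WT LPS replicate 2, 3 or 4 or KO LPS replicate 1 or 4 (adjusted p up to 0.0879), and the second without WT LPS replicate 2, 3 or 4 or any 1 WT PBS library (up to 0.117) and with WT PBS replicates 2 and 3 summed (0.0611). Acaa1a, the peroxisomal thiolase, and Ehhadh, the bifunctional enzyme, had estimates of 0.06 ± 0.12 and 0.04 ± 0.24 between KO LPS and WT LPS. Acaa1a has a near-identical copy, Acaa1b, listed at 0.411 CPM on average, and reads may have been divided between them.

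Among the regulators, Ucp2 (ENSMUSG00000033685; chr7:100493337-100502020, plus strand) had the widest range of all members. It encodes a carrier of the inner mitochondrial membrane that is abundant in macrophages. Ucp2 was read at 22, 19, 21.4 and 16 CPM in KO LPS and at 25.5, 17, 25.1 and 25.6 CPM in the libraries labelled KO PBS, against 8.58, 87.5, 59.3 and 72.2 CPM in WT LPS and 16.4, 20.4, 17.9 and 30.4 CPM in WT PBS. WT LPS held both the lowest library of all 16, replicate 1, and the 3 highest. Ucp2 was lower in KO LPS than in WT LPS (-1.54 ± 0.45; adjusted p = 0.0372, edgeR), and the estimate of 1.42 ± 0.45 between WT LPS and WT PBS did not pass (adjusted p = 0.0616). Without WT LPS replicate 1 these were -1.89 ± 0.20 (adjusted p = 1.447e-05) and 1.78 ± 0.20 (adjusted p = 2.651e-05). With it, the first call was lost without WT LPS replicate 2, 3 or 4 or any 1 KO LPS library (adjusted p up to 0.108). It was also lost with sex as a covariate (-1.38, adjusted p = 0.0845), with 1 surrogate variable (-0.91, 0.0522) and in the 8 libraries compared alone (0.124). The libraries without Y-linked transcripts do not include WT LPS replicate 1, and among them Ucp2 passed (-1.83, adjusted p = 0.00017, edgeR). The summed microglia markers given above were likewise highest in WT LPS replicates 2, 3 and 4, and their part in the Ucp2 values was not tested.

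The remaining regulators had 0 calls (edgeR). Acacb was read at 5.9 to 7.72 CPM in WT LPS against 7.48 to 11.7 CPM in WT PBS (-0.42 ± 0.17; adjusted p = 0.142), with groups that overlapped only through WT LPS replicate 2. Ppargc1a was read at 53.6 to 62.8 CPM in KO LPS against 46.5 to 53.3 CPM in the libraries labelled KO PBS. It was 1 of 5 members whose groups did not overlap there, against 6.55% of all genes, and did not pass (0.22 ± 0.12; adjusted p = 0.703). Mlycd, which degrades malonyl-CoA, and Ppard had estimates of -0.09 and 0.02 between KO LPS and WT LPS.

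Promoter sequence is shown for 4 of the 6 members called, Hadhb above and Eci2, Ucp2 and Acsl6 here: Eci2 and Ucp2 were high and Acsl6 low in the same 3 WT LPS libraries. The windows run from 250 bases before to 50 after the RefSeq start and were found for 31 of the 34 genes, in 34 windows (RefSeq, GRCm38.p6). Letters were searched on both strands, and capitals mark AGGTCA, the unit bound by nuclear receptors such as PPAR, TCAAGGTCA, the element of estrogen-related receptors, which contains that unit, and GGGCGG. Eci2 lies at chr13:34994095-34994394 on the minus strand, Ucp2 at chr7:100493108-100493407 on the plus strand, and Acsl6 (the first of 3 starts) at chr11:54303574-54303873 on the plus strand.
Eci2: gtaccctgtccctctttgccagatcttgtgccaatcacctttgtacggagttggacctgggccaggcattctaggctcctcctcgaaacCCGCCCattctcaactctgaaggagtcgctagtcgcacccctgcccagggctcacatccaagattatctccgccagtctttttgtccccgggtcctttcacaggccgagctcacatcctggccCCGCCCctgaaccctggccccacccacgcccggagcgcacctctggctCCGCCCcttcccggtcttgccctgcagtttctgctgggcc
Ucp2: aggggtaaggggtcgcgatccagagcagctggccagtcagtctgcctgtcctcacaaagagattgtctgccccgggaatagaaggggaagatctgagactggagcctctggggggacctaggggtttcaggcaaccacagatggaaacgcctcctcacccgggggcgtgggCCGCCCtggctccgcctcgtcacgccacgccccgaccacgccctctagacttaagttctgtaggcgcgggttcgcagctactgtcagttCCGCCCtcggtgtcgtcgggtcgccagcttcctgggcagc
Acsl6: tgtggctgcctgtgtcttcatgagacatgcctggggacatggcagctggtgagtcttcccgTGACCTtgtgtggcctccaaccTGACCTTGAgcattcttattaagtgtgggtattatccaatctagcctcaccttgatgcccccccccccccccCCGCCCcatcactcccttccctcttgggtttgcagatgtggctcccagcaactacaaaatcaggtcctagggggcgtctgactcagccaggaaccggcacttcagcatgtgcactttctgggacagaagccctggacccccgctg
AGGTCA was found in 7 of the 34 windows (20.6%), each of a different gene, of which Acsl6 and Cpt1c were called, and in 16.3% of 32851 promoter windows. TCAAGGTCA was found in 1 of the 34 windows (2.94%), the Acsl6 window printed, and in 0.423% of all windows, and the other two Acsl6 windows held neither. GGGCGG was found in 26 of the 34 windows (76.5%), of 24 genes, and in 35.7% of all windows. The cyclic AMP element TGACGTCA and the NF-kappaB core GGGACTTTC were found in 0 of the 34, and in 1.79% and 0.353% of all windows. These matches describe letters in the windows and say nothing of binding.

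Other genes of fatty acid breakdown gave few calls. Of 41 tested, 1 passed between KO LPS and WT LPS (2.44%, against 11.9% of all genes) and 1 between WT LPS and WT PBS (2.44%, against 8.57% of all genes), both lower. Pccb, a subunit of propionyl-CoA carboxylase, was read at 44.8, 42.6, 45.1 and 41.8 CPM in KO LPS and 45.3 to 47.2 CPM in the libraries labelled KO PBS, against 44.3, 54.7, 52.3 and 51.3 CPM in WT LPS and 43.2 to 46.1 CPM in WT PBS. WT LPS replicates 2, 3 and 4 were above every other library. Pccb was lower in KO LPS than in WT LPS (-0.22 ± 0.06; adjusted p = 0.0224, edgeR), a call lost without WT LPS replicate 2, 3 or 4 or KO LPS replicate 2 or 4 (adjusted p up to 0.0694). Acot7, a brain acyl-CoA thioesterase, was lower in WT LPS than in WT PBS (-0.41 ± 0.09; adjusted p = 0.0115), at 220, 152, 163 and 164 CPM in WT LPS against 226 to 236 CPM in WT PBS, and kept its call with each library left out (adjusted p up to 0.0494). Acot1 and Acot2 are near copies of each other, so their reads may have been divided, and neither passed.

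Of 11 known targets of PPAR receptors tested, 3 were lower in KO LPS than in WT LPS (27.3%, where 7.28% of all genes were called lower, edgeR). The same 3 were higher in WT LPS than in WT PBS (27.3%, where 4.72% of all genes were called higher). The other 8 passed in neither. Between KO LPS and WT LPS, 7 of the 11 had lower and 4 higher estimates, with a median of -0.09. Among the higher were Lpl (0.53 ± 0.22, adjusted p = 0.123, edgeR) and Vldlr (0.19 ± 0.06, adjusted p = 0.0538). Angptl4, an inhibitor of lipoprotein lipase, was read at 1.22, 2.02, 1.54 and 1.7 CPM in KO LPS, against 2.14, 6.52, 7.61 and 7.73 CPM in WT LPS and 1.44 to 3.42 CPM in WT PBS. It was lower in KO LPS than in WT LPS (-1.89 ± 0.35; adjusted p = 0.00517, edgeR) and higher in WT LPS than in WT PBS (1.23 ± 0.34; adjusted p = 0.0363). Its estimate between the libraries labelled KO PBS and WT PBS was -0.62 ± 0.35 (adjusted p = 0.918, edgeR). The interaction of Angptl4 did not pass (-1.27 ± 0.48, adjusted p = 0.148, edgeR). Plin2, a coat protein of lipid droplets, was read at 4.04 to 4.68 CPM in KO LPS, against 4.67, 9.18, 7.11 and 9.15 CPM in WT LPS and 3.91 to 4.84 CPM in WT PBS. Its fold changes were -0.80 ± 0.18 (adjusted p = 0.0119) and 0.75 ± 0.18 (adjusted p = 0.0182). Pdk4, the kinase that turns off pyruvate dehydrogenase, was read at 9.73 to 12.4 CPM in KO LPS, against 9.16, 34, 23.7 and 19.2 CPM in WT LPS and 9.29 to 11.5 CPM in WT PBS (-0.98 ± 0.26 and 1.04 ± 0.26; adjusted p = 0.0265 and 0.0249). The calls of Angptl4 and Plin2 between KO LPS and WT LPS held with each library left out, and that of Pdk4 was lost without WT LPS replicate 2 or 3 or KO LPS replicate 1, 2 or 3 (adjusted p up to 0.0872) and with sex as a covariate (0.0632). Between WT LPS and WT PBS, Angptl4 was lost without WT LPS replicate 2, 3 or 4 or any 1 WT PBS library (up to 0.107), Plin2 without WT LPS replicate 2 or 4 or WT PBS replicate 3 (up to 0.0607), and Pdk4 without replicate 2 or 3 of either group (up to 0.0818). In that comparison Angptl4 and Pdk4 were also lost with WT PBS replicates 2 and 3 summed, and Angptl4 with 1 surrogate variable. In Angptl4, Plin2 and Pdk4, WT LPS replicate 1 stood apart from replicates 2, 3 and 4 as it did in Ucp2 and Eci2.

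Ketone body use, which feeds the same acetyl-CoA pool, was read from 4 genes, of which 2 passed between KO LPS and WT LPS, 1 in each direction (against 11.9% of all genes), and 1 between WT LPS and WT PBS (against 8.57%). Oxct1, the enzyme that lets tissues burn ketone bodies, was read at 284, 281, 297 and 272 CPM in KO LPS and 270 to 293 CPM in the libraries labelled KO PBS, against 278, 216, 218 and 199 CPM in WT LPS and 278 to 288 CPM in WT PBS. It was higher in KO LPS than in WT LPS (0.31 ± 0.08; adjusted p = 0.0181, edgeR) and lower in WT LPS than in WT PBS (-0.31 ± 0.08; adjusted p = 0.0215). Bdh1, the dehydrogenase between the 2 main ketone bodies, was lower in KO LPS than in WT LPS by a small amount (-0.18 ± 0.05; adjusted p = 0.0433). Oxct1 and Bdh1 were named after their values were seen, and their calls were not followed with libraries left out or in the other fits.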

How the data were processed

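RNA of 16 hippocampus libraries was sequenced after preparation with a NEBNext Ultra kit, per the labels' protocols. The deposited table holds estimated counts per gene, given as whole numbers. The submitters' processing notes name Salmon 1.9.0, MultiQC 1.13, DESeq2 and DESeq, with no role for each. The sources used here give no genome build. Symbols and positions were looked up in GENCODE M21 (GRCm38), in which 105 identifiers (0.0537% of counts) had no entry.

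The estimated counts were tested as the authors deposited them. The filterByExpr function of edgeR 4.0.16 (R 4.3.3) kept 16269 genes holding 99.97% of counts. Libraries were scaled by TMM, group means were fitted over all 16 libraries, and p-values of quasi-likelihood F tests were Benjamini-Hochberg adjusted, with 0.05 as the threshold. The SE is the fold change divided by the root of F. Log2 CPM used a prior count of 2. The lowest count of a member in a library was 64.

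Alternatives were RLE scaling, DESeq2 1.42.0, limma-voom 3.58.1 with sample weights, no filter, CPM of at least 1 in 4 libraries, a replicate block, sex, 1 surrogate variable (sva 3.50.0), only the libraries compared, WT PBS replicates 2 and 3 summed, and each library left out. Leaving out doubted libraries together and keeping only libraries without Y-linked transcripts were chosen after seeing the data. WT PBS replicates 2 and 3 were the most alike pair within a group, with a chi-square per gene of 3.782 against 12.27 or more in other pairs. They still differed by more than sampling noise and were counted separately, with the summed fit as an alternative. The labels do not say whether they are separate animals. The pipeline was tested on simulated data. The members and gene lists were chosen with earlier results of these data known. Members called in any test are given library by library. Up to 6 called genes of each of the other pathway and PPAR lists, by smallest p, are named. Their values are given by library or as ranges, and not for every group. Some genes of the other lists are not reported here and enter none of the list counts.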

Additional observations from a re-analysis of the deposited data

Results flagged for a closer look

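Within groups of 4 libraries, 13 of 136 sets of a member and a group held a library far from the other 3, where chance gives about 1 in 20. WT LPS replicate 1 accounts for 4 of them: Ucp2 at 8.58 CPM against 59.3 to 87.5 in replicates 2, 3 and 4, Acsl6 at 235 CPM against 190 to 193, Acadl at 23.9 CPM against 32.7 to 33.2, and Hadha at 59.9 CPM against 66.7 to 67.8. In the same group, Acacb stood at 7.72 CPM in replicate 2 against 5.9 to 6.14. In WT PBS, replicate 4 stood apart for Etfb at 29.2 CPM against 21.9 to 22.9, for Ppargc1a at 38.2 CPM against 57 to 59.7, and for Acacb at 11.7 CPM against 7.48 to 7.69, and replicate 1 for Hadhb at 58.9 CPM against 66 to 66.5. Among the libraries labelled KO PBS, Echs1 stood at 57.9 CPM in replicate 3 against 49.8 to 50.9, Ucp2 at 17 CPM in replicate 2 against 25.1 to 25.6, and Mlycd at 16.7 CPM in replicate 4 against 20.5 to 21.3. In KO LPS, Acsl3 stood at 172 CPM in replicate 1 against 192 to 194.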

How the results depend on the processing

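Counts of members called are given with the share of all genes called in the same fit. Between WT LPS and WT PBS, the 3 members called (8.57%) became 5 with DESeq2 (12.3%), 13 with limma-voom (28.8%), 5 with 1 surrogate variable (10.3%), 0 when only those 8 libraries were fitted (0%), 1 with WT PBS replicates 2 and 3 summed (4.05%), 7 without WT LPS replicate 1 and the library labelled KO PBS replicate 1 (19.9%), 6 without WT PBS replicate 1 and WT LPS replicate 1 (18.8%), and 13 among libraries without Y-linked transcripts (23.1%). Between KO LPS and WT LPS, the 6 called (11.9%) became 7 with DESeq2 (15.6%), 11 with limma-voom (25%), 4 with sex as a covariate (8.58%), where Eci2 and Ucp2 were lost, 5 with WT PBS replicates 2 and 3 summed (10.9%), 0 when only those 8 libraries were fitted (2.74%), and 10 and 12 without those same pairs of libraries (23.7% and 24.4%). With 1 surrogate variable they were 6 (14.5%), with Etfa gained and Ucp2 lost. Between the libraries labelled KO PBS and WT PBS, 0 (0.0369%) became 1 with limma-voom (1.89%). In the interaction, 0 (1.15%) became 2 with DESeq2 (7.76%), 13 with limma-voom (24.8%), 8 and 7 without those pairs (14.6% and 14.3%), and 4 among libraries without Y-linked transcripts (11%). Leaving out 1 library gave 1 to 7 members between WT LPS and WT PBS (3.28% to 20.5%), 1 to 11 between KO LPS and WT LPS (5.23% to 24.3%), 0 to 9 in the interaction (0% to 16.1%), and 0 in both other comparisons. Beyond the number of libraries fitted, the cause of these shifts was not tested. With the replicate block the counts were 3 (6.57%), 5 (9.95%) and 0 (0%) for the first 2 comparisons and the interaction, and 0 for the other comparisons. The block lost, between KO LPS and WT LPS, Eci2 (adjusted p = 0.0736, edgeR) and Ucp2 (0.0838) and gained Acsl3, and between WT LPS and WT PBS it lost Angptl4 (0.0682) and Pdk4 (0.0528). Same-numbered libraries had correlations of -0.222 to 0.364 in their deviations from group means, the highest between WT LPS and WT PBS replicates 1. The labels do not say whether such libraries are pairs, and correlations of this kind cannot settle it. Of the calls of Pccb, Acot7, Angptl4, Plin2 and Pdk4, the fits of only the 8 libraries compared kept that of Angptl4 between KO LPS and WT LPS. Over 26 gene results and 29 alternatives, 748 values were recomputed: 605 kept their direction and side of the threshold, 102 lost a call, 41 gained one and 0 changed direction. The members' lowest count in a library was 64, and depth was not varied.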
